A study of Homo sapiens with 12 samples.

Results

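The elements described here are the 8-base test elements of an RNA-binding assay that hold neither G nor C. They were chosen by sequence, as the entries that all 12 libraries list and that are made only of A and T, with earlier results of these data known. There were 37 such elements among 1005 elements of 8 bases, and none of the 16 entries missing from some library was made only of A and T. The assay was RBPscan. It was run in HEK293T, a cell line of human embryonic kidney origin that the labels give as WT. A recorder mRNA library carried a different element per molecule beside a hairpin of 7 recorder adenosines in the 3′ UTR, and PCR amplicons of that region were sequenced. The enzyme was ADARcdMUT, an altered catalytic domain of the adenosine deaminase ADAR, which turns adenosine to inosine, read as G. In 3 groups it was fused to human PUM2 (hsPUM2) and labelled non-induced, 25 ng or 250 ng, and in the fourth ADARcdMUT was used without PUM2 at 1000 ng. Each group had 3 biological replicates. The series' design names doxycycline as the inducer, but the titles do not say what the amounts in ng refer to, so the amount for ADARcdMUT cannot be set against those for the fusion. The labels' extraction text names zebrafish embryos, whereas the source, the cell line and the design give HEK293T. A library without any PUM2 construct or deaminase, and one of the input DNA, were not analysed here.

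PUM2 is a cytoplasmic RNA-binding protein of the Pumilio family that lowers the stability and translation of its target mRNAs. Its repeats line up along the RNA and each contacts a base, and its known site is TGTANATA, with N for any base, written here with T for the U of RNA. The G at position 2, numbering the element from its 5′ base as 1, is a conserved base of that site. An element without G therefore always lacks it, and none of the 37 can hold TGT or TGTA. Stretches of A and T in 3′ UTRs are also read by other proteins, among them poly(A)-binding proteins on runs of A, and ELAVL1, TIA1 and ZFP36 on runs of T or on ATTTA words. The usual signals for cleavage and polyadenylation are AATAAA and its variant ATTAAA.

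The elements on which the results turn are given here 5′ to 3′, with capitals at the bases that differ from TGTANATA at its 7 fixed positions. The first 4 differ only at position 2 (G2A or G2T), and the others are those with the most distinct editing, the most distinct read numbers or the longest runs.
TATATATA: tAtatata
TATAAATA: tAtaaata
TTTATATA: tTtatata
TTTAAATA: tTtaaata
TATATATT: tAtatatT
TTTATATT: tTtatatT
TTAATATA: tTAatata
TATAATTA: tAtaaTta
ATTATATA: ATtatata
TTAAAATA: tTAaaata
AAAAAATA: AAAaaata
ATAAATTT: ATAaaTtT
AAAATTTT: AAAatTtT
AAAAAAAA: AAAaaaAa
TTTTTTTT: tTtTtTtT
Of the 37 elements, 4 differ from the site at 1 fixed position, 24 at 2 and 9 at 3 or more. The 28 with 1 or 2 differences comprise 14 with A and 14 with T at position 2, so many members are near copies of each other and are not independent. They are set against 145 elements of the same length with 4 or more G or C, called GC-rich here, of which 28 hold TGTA.

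The libraries held 11235321 to 25127959 reads, and the A/T-only elements took between 1.97% of them (ADARcdMUT, replicate 1) and 2.70% (250 ng, replicate 3). The lists hold only entries above 1000 reads (lowest 1015), and no A/T-only element fell below 2122 reads in any library. The labels mention no molecular identifiers, so reads may be PCR copies of each other. The spread between replicate libraries, not counting error, is used for every comparison.

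Editing of the A/T-only elements, as the percent of their recorder adenosines that were edited, was near 2% without induction and near 8% at 250 ng. Their median was 1.78% ± 0.114 in non-induced cells, 4.46% ± 0.174 at 25 ng, 8.33% ± 0.145 at 250 ng and 1.92% ± 0.116 with ADARcdMUT (SD, n = 3 libraries each). The GC-rich elements had 1.86% ± 0.0983, 4.30% ± 0.167, 7.74% ± 0.0428 and 1.94% ± 0.0661 in the same order. At 250 ng the A/T-only medians of the 3 libraries were 8.22%, 8.27% and 8.49%, against 7.70%, 7.76% and 7.78% for the GC-rich elements, so the library medians of the classes did not overlap there. The elements themselves did, with means of 7.79% to 10.2% in A/T-only and 6.41% to 11.2% in GC-rich elements. In non-induced cells the A/T-only medians were 1.66%, 1.89% and 1.79%, against 1.77%, 1.96% and 1.83%. They were the lower ones in each of these 3 libraries, with a mean difference of −0.0755 ± 0.0326 percentage points (SD, n = 3).

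Set within each library, as the log2 odds of editing of the A/T-only median minus that of the GC-rich median, the difference was −0.061 ± 0.029 in non-induced cells, 0.055 ± 0.052 at 25 ng, 0.114 ± 0.021 at 250 ng and −0.0099 ± 0.038 with ADARcdMUT (SD, n = 3). It lay below 0 in all 3 non-induced libraries and above 0 in all 3 libraries at 25 ng and at 250 ng, while with ADARcdMUT its sign differed between libraries (0.030, −0.013 and −0.047). The 250 ng difference amounts to 0.585 ± 0.115 percentage points. It was present in the share of reads with any edit, at 23.3% ± 0.487 in A/T-only and 22.0% ± 0.329 in GC-rich elements. The edits per edited read were 2.51 ± 0.0182 in A/T-only and 2.46 ± 0.0212 in GC-rich elements. Up to 4 G or C, editing at 250 ng was lower the more of them an element held: 8.33% ± 0.145 with none, 8.03% ± 0.131 with 1 (160 elements), 7.90% ± 0.130 with 2 (347), 7.83% ± 0.0770 with 3 (316) and 7.73% ± 0.0491 with 4 (134). It was not lower still in the 11 elements with more, at 7.83% with 5 (7 elements), 8.01% with 6 (2) and 8.85% with 8 (2). Of the 37 elements, 26 lay above the library median of editing in all 3 libraries at 250 ng, which is 70.3% of them, against 34.3% of all 8-base elements. These are descriptions of classes, without a test.

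Every one of the 37 elements was edited more at 250 ng than in non-induced cells, but so was every entry tested. With limma on the log2 odds over 12 libraries and Benjamini-Hochberg adjustment over 1006 entries, an adjusted p under 0.05 was reached by 37 of 37 members, beside 100% of all entries. The same held for 25 ng against non-induced, 250 ng against 25 ng, and either amount against ADARcdMUT, each with 37 of 37 members beside 100% of entries. The median change in log2 odds of the members from 250 ng against non-induced was 2.32, beside 2.21 over all entries and 2.15 over the GC-rich ones. For 25 ng against non-induced it was 1.36, beside 1.29 over all entries.

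To see which members changed beyond this common shift, each library was centred on its own median. At 250 ng against non-induced, 5 of 37 members then rose and none fell, beside 9.64% of all entries that rose and 3.38% that fell. The members' share, 13.5%, is near that background. An unadjusted p under 0.05 was reached by 14 members, beside 26.1% of all entries. The fitted change was above 0 for 33 of 37 members, beside 52.3% of all entries, with a median of 0.114 beside 0.0067. Among the GC-rich elements 2 rose and 12 fell, with a median of −0.051. Those that rose were TATATATT by 0.44 (SE 0.13, adjusted p 0.0353), TATATATA by 0.42 (SE 0.09, adjusted p 0.0056), TATAAATA by 0.25, TATATAAA by 0.23 and TATAATTA by 0.21, all on the log2 scale. All 5 begin with TATA, as do other members that did not pass. A rise did not always mean high editing at 250 ng. TATAATTA had a mean of 8.16% there, below the class median of 8.33%, and 1.64% in non-induced cells. TATATATT had 9.08% at 250 ng, and its 1.58% in non-induced cells was the lowest mean of the members. The count rested on single libraries. It was 1 (TATATATA) without non-induced replicate 1 or 2 or without 250 ng replicate 1 or 3. It was 2 without 250 ng replicate 2, and 8 without ADARcdMUT replicate 1 or 2, which enter the shared spread. The share of all entries in these fits is not given here, so the counts do not tell the members from the background.

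TATATATA, the site with G2A and T in the free position 5, was the most edited member at 250 ng. It had 9.78%, 10.3% and 10.4% of its adenosines edited at 250 ng, against 1.83%, 1.81% and 1.77% in non-induced cells. At 25 ng it had 5.33%, 4.60% and 5.31%, and with ADARcdMUT 1.96%, 2.10% and 1.56%. The groups of the fusion did not overlap, and the ADARcdMUT libraries lay around the non-induced ones. TATAAATA, its counterpart with A at position 5, had 8.94%, 9.37% and 10.1% at 250 ng, against 1.80%, 1.81% and 1.99% in non-induced cells. The G2T pair was lower at 250 ng, with 8.69%, 9.09% and 9.56% for TTTATATA and 8.20%, 8.20% and 8.46% for TTTAAATA, against 1.66%, 1.89% and 1.79% and 1.86%, 1.94% and 1.85% in non-induced cells. The median over these 4 elements, G2A and G2T together, was 9.29% ± 0.509 at 250 ng (SD, n = 3). Members with a further difference at position 1, 3, 4, 6, 7 or 8 had medians between 7.95% and 8.33% (4 elements each).

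Base 2 could be compared directly, since 14 sequence contexts were listed with each of the 4 bases at that position. Over the 14 contexts the median editing at 250 ng was 8.34% ± 0.214 with A and 8.13% ± 0.206 with T, against 7.74% ± 0.171 with C and 10.1% ± 0.315 with G (SD, n = 3). Editing with A or T thus lay between the levels with C and with G. The difference in log2 odds from C at 250 ng was 0.133 ± 0.023 for A and 0.080 ± 0.011 for T, positive in 14 of 14 contexts for either base. From G it was −0.35 ± 0.0063 for A, with A higher in 2 of 14 contexts, and −0.37 ± 0.021 for T, with T higher in 0 of 14. At 25 ng the difference from C was 0.113 ± 0.0038 for A and 0.049 ± 0.016 for T, positive in 13 and 12 of 14 contexts. With ADARcdMUT it was 0.0075 ± 0.083 for A and −0.0019 ± 0.105 for T, positive in 7 and 8 of 14. In non-induced cells it was 0.047 ± 0.031 for A and 0.072 ± 0.070 for T, positive in 8 and 12 of 14. With G at position 2, the non-induced and ADARcdMUT medians (1.77% and 1.91%) lay beside those with A (1.76% and 1.98%) and with T (1.78% and 1.91%). The contexts overlap in sequence, so these counts carry no test.

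Position 5 is free in the PUM2 site, and 14 pairs of members differed only there. This split was chosen after the values were seen. With T rather than A at position 5, the log2 odds were higher by 0.108 ± 0.018 at 250 ng (T above A in 11 of 14 pairs) and by 0.058 ± 0.027 at 25 ng (11 of 14). In non-induced cells the difference was −0.031 ± 0.062 (6 of 14), and with ADARcdMUT −0.068 ± 0.094 (5 of 14). The difference was thus larger than the spread between libraries with the induced fusion, and smaller than it in the other 2 groups.

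Against ADARcdMUT, 7 of 37 members had higher centred editing at 250 ng and none lower, beside 10.3% of all entries higher and 4.37% lower. They were TATATATT (0.51), TATATATA (0.47), TTAATATA (0.41), TTTATATT (0.38), TATAAATT (0.25), ATAAATAT (0.22) and TATATAAA (0.21). The median change over members was 0.12, and 14 members had an unadjusted p under 0.05, beside 28% of all entries. The count of 7 became 3 without 250 ng replicate 1 or 2 and 2 (TATATATA and TTAATATA) without 250 ng replicate 3. It was 10 without non-induced replicate 2. The share of all entries in these fits is not given here, so the counts do not tell the members from the background. TTAATATA, which differs from the site at positions 2 and 3, had 8.13%, 8.46% and 8.40% at 250 ng, against 1.54%, 1.58% and 1.55% with ADARcdMUT. Its adjusted p was 0.0006, and its non-induced libraries (1.64%, 1.78% and 1.97%) all lay above those with ADARcdMUT. TATATATT had 8.61%, 8.91% and 9.72% at 250 ng, against 1.37%, 2.14% and 1.38% with ADARcdMUT. Replicate 2 of ADARcdMUT stood apart from the other 2 for this element.

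At 25 ng fewer members passed. Against non-induced, TATATATT (0.45, adjusted p 0.0410) and TTTAAATT (0.20, adjusted p 0.0430) rose and none fell, beside 7.06% of entries that rose and 2.19% that fell. TTTAAATT had a mean of 4.40% at 25 ng, below the class median of 4.46%, and 1.61% in non-induced cells. Neither TATATATT nor TTTAAATT passed without non-induced replicate 1 or 3, without any of the 25 ng libraries or without any of the 250 ng libraries. In their place 3 other members passed without non-induced replicate 3, and 1 other, TATATATA, without 25 ng replicate 2. Without non-induced replicate 2 only TTTAAATT passed. Both passed without any 1 of the ADARcdMUT libraries, among counts of 3 to 4. At 25 ng against ADARcdMUT, TATATATT (0.52) and TTAATATA (0.35) were higher and TATAATTA was lower (−0.21, adjusted p 0.0286), beside 7.55% of entries higher and 2.49% lower. That count of 3 became 1 without 25 ng replicate 3, 2 without 25 ng replicate 1, 6 without ADARcdMUT replicate 1 and 5 without its replicate 2 or 3. It was also 3 without 25 ng replicate 2, but of these only TTAATATA was the same. For the fits without 1 library the share of all entries is not given here, so their counts do not tell the members from the background. Between 250 ng and 25 ng no member changed by centred editing in limma, beside 0% of entries in either direction, and none had an unadjusted p under 0.05. These comparisons share libraries, so their calls are not independent of each other.

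With ADARcdMUT against non-induced, 1 member differed in absolute editing, beside 0.199% of entries higher and 0% lower. It was TATAATTA, with 2.41%, 2.39% and 2.05% with ADARcdMUT, against 1.53%, 1.66% and 1.73% in non-induced cells, without overlap. Its centred change was 0.39 (SE 0.06, adjusted p 0.0058), again 1 of 37 members beside 0.199% of entries. In absolute editing 8 members had an unadjusted p under 0.05, beside 17.6% of all entries, and the median change was 0.12, beside 0.087 over all entries. In absolute editing 0 members passed without non-induced replicate 1 or ADARcdMUT replicate 2, and 4 passed without ADARcdMUT replicate 3. In centred editing 2 passed without non-induced replicate 2 or without ADARcdMUT replicate 1 or 3. For the fits without 1 library the share of all entries is not given here.

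Across the 37 members the least-squares slope of the log2 odds on the number of A was −0.0037 ± 0.0033 at 250 ng and between −0.020 and 0.019 in every library. This depended on the model. With the longest runs of A and of T as further terms the slope was 0.093 ± 0.074 in non-induced cells, 0.011 ± 0.022 at 25 ng, 0.013 ± 0.014 at 250 ng and 0.123 ± 0.115 with ADARcdMUT, and above 0 in 9 of 12 libraries. Elements were also matched for it, a split chosen after the values were seen. With 4 A, 12 A/T-only elements had 8.39% ± 0.169 at 250 ng, against 7.67% ± 0.221 in 5 GC-rich elements. With 3 A the values were 8.11% ± 0.219 (8 elements) against 7.71% ± 0.0531 (25), and with 2 A 8.41% ± 0.138 (3) against 7.73% ± 0.0468 (78). The A/T-only elements were thus the higher class at each of these numbers of A. The classes were not matched for likeness to the PUM2 site. Of the members, 4 differ from it at 1 fixed position and 24 at 2, while 28 of the 145 GC-rich elements hold TGTA and no member does.

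Runs of a single base did not go with higher editing. By the longest run of A or T, the median at 250 ng was 9.48% ± 0.296 with no run (2 elements), 8.56% ± 0.0691 with runs of 2 (6), 8.23% ± 0.198 with runs of 3 (18), 8.25% ± 0.110 with runs of 4 (4) and 8.17% ± 0.162 with runs of 5 (4). AAAAAAAA, a run of A with 4 differences from the site, had 8.25%, 8.33% and 8.69% at 250 ng, against 1.38%, 1.86% and 1.85% in non-induced cells. TTTTTTTT had 8.29%, 8.18% and 8.49% at 250 ng, against 1.89%, 2.13% and 1.67% in non-induced cells. Both runs of 8 thus lay near the class median at 250 ng. The lowest member there was TTAAAATA, at 7.76%, 7.64% and 7.98%. All members together spanned 7.79% to 10.2% in their means at 250 ng, 3.90% to 5.23% at 25 ng, 1.58% to 2.07% in non-induced cells and 1.56% to 2.34% with ADARcdMUT.

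The median A/T-only element had fewer reads than the median GC-rich one in every library. Their median was 640 ± 40.0 RPM (reads per 1000000 reads of the library) in non-induced cells, 636 ± 45.1 at 25 ng, 718 ± 51.5 at 250 ng and 570 ± 61.4 with ADARcdMUT (SD, n = 3). The GC-rich elements had 1081 ± 21.6, 1077 ± 41.5, 1023 ± 44.7 and 1229 ± 93.5 in the same order. The ratio of the A/T-only to the GC-rich median was 0.593 ± 0.0481 in non-induced cells, 0.592 ± 0.0620 at 25 ng, 0.704 ± 0.0815 at 250 ng and 0.468 ± 0.0874 with ADARcdMUT. Of the 37 elements, 30 lay below the median of all 8-base elements in all 12 libraries and 0 lay above it in all 12, whereas 19 of the 145 GC-rich elements lay below it in all 12. The median grew with the number of G and C up to 4, with 640 RPM for none, 801 for 1, 906 for 2, 1050.0 for 3 and 1115 for 4, from means over the 12 libraries. It was 986 with 5 (7 elements), 1453 with 6 (2) and 1167 with 8 (2). The slope of the log2 read share per G or C over all 1005 elements was above 0 in each of the 12 libraries, and at 250 ng it was 0.099 ± 0.037. With the number of A and the longest run of A or T in the same model it was above 0 in 11 of 12 libraries. At 250 ng the slope per G or C in that model was 0.040 ± 0.058, smaller than its spread. Matched for the number of A, the median at 250 ng was 778 RPM in A/T-only against 997 in GC-rich elements with 2 A, 754 against 1095 with 3 A, and 725 ± 47.9 against 717 ± 73.3 with 4 A. The difference between the 12 A/T-only and 5 GC-rich elements with 4 A was thus smaller than the spread between libraries at 250 ng. In non-induced cells those with 4 A had 678 ± 49.4 and 836 ± 39.9, and with ADARcdMUT 572 ± 78.8 and 905 ± 78.4. How often an element was made, how much of its reporter RNA was present and how well it was amplified cannot be told apart here.

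Within a group, the member with the most reads had 4.79 to 5.04 times as many as the one with the fewest. The highest, TTAAAATA, had 1089, 1009 and 1054 RPM in non-induced cells, and TATTTATA and TTTTTATA followed. The lowest, AAAAAATA, had 215, 212 and 221, and ATAAATTT had 237, 241 and 232. AAAAAAAA, with 518, 554 and 531, and TTTTTTTT, with 812, 767 and 759, lay in between. The slope of the log2 read share on the number of A was below 0 among the members in 12 of 12 libraries. It was −0.061 ± 0.022 per A in non-induced cells and −0.108 ± 0.030 at 250 ng. This model held 1.32% to 5.49% and 5.60% to 13.4% of the variance. With the runs of A and of T as further terms the slope was −0.114 ± 0.032 and −0.174 ± 0.037. Non-induced medians did not fall from 2 to 6 A, at 612, 621, 678, 639 and 703 RPM. Single elements at the ends had 779 (0 A), 216 (7 A) and 535 (8 A). At 250 ng the medians from 2 to 6 A were 778, 754, 725, 729 and 650. Within a library, the rank correlation between a member's read share and its editing ranged from −0.334 to 0.293 over the 37 elements, with both signs among the libraries. The members share sequence and library, so this is a description.

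Libraries of the same group differed in read share across whole classes. The ratio of the A/T-only to the GC-rich median was 0.695, 0.628 and 0.790 at 250 ng and 0.397, 0.441 and 0.566 with ADARcdMUT. Over all entries, deviations from the group means correlated between −0.843 and 0.891 for libraries with different replicate numbers. Entries thus moved together within libraries, and their read share calls are not independent of each other. Among the members, TATATATT had 479, 291 and 406 RPM at 25 ng, so that replicate 2 lay below all 3 non-induced libraries (417, 351 and 391) and replicate 1 above them. At 250 ng, replicate 3 had the highest read share of this element, at 643.

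Between 250 ng and ADARcdMUT, 20 of 37 A/T-only elements had a higher read share and 7 a lower one. The background was large, since 31.7% of all entries were higher and 34.8% lower by edgeR's quasi-likelihood test with Benjamini-Hochberg adjustment. The members' shares were 54.1% and 18.9%, with a median log2 change of 0.20 beside −0.0071 over all entries. Among the GC-rich elements 2 were higher and 114 lower, with a median of −0.29. The largest increase was that of ATTATATA, which had 572, 510 and 659 RPM at 250 ng, against 276, 304 and 367 with ADARcdMUT (log2 change 0.83, adjusted p 0.0046). TTTATATA had 718, 642 and 920 at 250 ng, against 327, 426 and 503 with ADARcdMUT (0.82), and TTTATATT changed by 0.82, TATATATT by 0.79 and TATATATA by 0.63. The largest decrease was that of AAAATTTT, with 329, 316 and 305 at 250 ng, against 407, 401 and 408 with ADARcdMUT (−0.40, adjusted p 0.0046). AAAAAAAA changed by −0.29, TTTTAAAA by −0.26, TTTTTTTT by −0.21, TTTAAAAA by −0.18, TAAAAATA by −0.12 and TATAAAAA by −0.12. The count of members higher or lower stayed between 21 and 27 when any 1 library was left out. The share of all entries in those fits is not given here.

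In the other 5 comparisons of read share no member passed in edgeR, beside 0% of entries in either direction. An unadjusted p under 0.05 was reached by 18 members for 250 ng against non-induced (beside 42.7% of all entries), 15 for 250 ng against 25 ng (32%), 5 for 25 ng against ADARcdMUT (26.6%), 4 for ADARcdMUT against non-induced (25.3%) and 0 for 25 ng against non-induced (1 of 1006 entries). For 250 ng against non-induced the absence of calls depended on the fit. DESeq2 called 12 members (7 higher and 5 lower) beside 30.9% of entries, edgeR with the replicate number as a block 9 beside 26.6%, and edgeR on the libraries of these 2 groups alone 19 beside 48.2%. DESeq2 called 0 members in the other 4 comparisons. The shared spread also let single libraries decide, with 18 members called without 25 ng replicate 2, beside 43.3% of entries, and 5 without 25 ng replicate 1, beside 21.3%. Likewise 16 members were called for 250 ng against 25 ng without 25 ng replicate 1 (33% of entries), and 16 for 25 ng against ADARcdMUT without 25 ng replicate 2 (49.4%). ADARcdMUT against non-induced gave 4 without 25 ng replicate 2 (15.1%) and 2 without ADARcdMUT replicate 3 (14.2%), and 25 ng against ADARcdMUT gave 1 without ADARcdMUT replicate 3 (14.6%). For 250 ng against non-induced the largest fitted changes included TATATATT at 0.48 (adjusted p 0.0770), TTTATATA at 0.48 (adjusted p 0.0823) and AAAAAAAA at −0.35 (adjusted p 0.0766).

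Runs and alternation of A and T divided the members by the direction in which their read share differed between 250 ng and ADARcdMUT. Both splits were made after the values were seen and have no test. Of the 11 members with a run of 4 or more of the same base, 0 were higher and 7 lower, and of the 26 others 20 were higher and 0 lower. By the number of TA dinucleotides, the median log2 change was −0.29 with none (3 elements), −0.071 with 1 (5), 0.19 with 2 (15), 0.46 with 3 (13) and 0.63 in the only element with 4, TATATATA. The 13 members with 3 TA dinucleotides had a median of 763 RPM at 250 ng and 542 with ADARcdMUT. The 47 elements of the whole 8-base set with 3 of them, these members included, had 811 and 584 in the same order. With 2, the values were 686 and 635 in the members and 935 and 794 in all 284 elements. With 1, they were 599 and 655 in the members and 1003 and 1011 in all 519 elements. With none, they were 424 and 501 in the members and 945 and 1110 in all 154 elements. The division by TA dinucleotides was thus present in the whole 8-base set and was not particular to the members.

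The same order was less regular in editing. The log2 odds relative to the library median at 250 ng were 0.098 with no TA dinucleotide, −0.0040 with 1, 0.051 with 2, 0.155 with 3 and 0.41 with 4. Of the 7 members with higher centred editing at 250 ng than with ADARcdMUT, 6 also had a higher read share in that comparison. So did 20 of all 37 members, and the same overlap over all entries is not given here. Across the 37 members the rank correlation between the change in editing and the change in read share was 0.33 for 250 ng against ADARcdMUT and 0.49 for 250 ng against non-induced. The members share libraries and sequence, and the part of read share in the editing differences was not tested.

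The 5 members that hold ATTTA or one of the polyadenylation words lay below the class median of editing at 250 ng, 8.33%, in their means. Members of a class lie on either side of its median by definition, and all 5 differ from the site at 2 fixed positions. ATTAAATA was named for its low editing at 250 ng, and the others after their values were seen. A part of these words in editing was not tested. The 3 elements with ATTTA were TATTTATA, at 7.94%, 7.98% and 8.57% edited, TATATTTA, at 7.96%, 7.91% and 8.16%, and TTTATTTA, at 7.72%, 8.02% and 7.87%. AATAAATA, which holds AATAAA, had 7.74%, 7.85% and 8.04% edited, with 756, 757 and 769 RPM at 250 ng, against 712, 702 and 725 in non-induced cells. ATTAAATA, which holds ATTAAA, had 7.89%, 7.97% and 7.55% edited, with 599, 583 and 647 RPM at 250 ng, against 534, 507 and 539 in non-induced cells. Between 250 ng and non-induced 0 of 1006 entries passed the main test of read share, so the lack of a call says nothing about these 2. With ADARcdMUT their mean was 627 ± 21.0 RPM for AATAAATA and 444 ± 24.5 for ATTAAATA (SD, n = 3). AATAAATA was among the 20 of 37 members with a higher read share at 250 ng than with ADARcdMUT (log2 change 0.23). ATTAAATA also had more reads at 250 ng than with ADARcdMUT, with a mean of 610 ± 33.5 RPM at 250 ng (SD, n = 3).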

How the data were processed

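PCR amplicons of recorder mRNA from HEK293T cells were sequenced in 12 libraries, with groups and replicates as the titles name them. The deposited tables give counts per element (reads, edited reads and edits) and all reads of a library. From these the authors derived a percent edited, which recomputation matched within 1e-09 as edits over 7 times the reads. An efficiency score, and the percent of reads, were deposited too, and the score was not tested. The sources used here do not state the aligner, the caller of edits or any filter on reads.

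Per element and library, log2((edits + 0.5)/(7 × reads − edits + 0.5)) was tested with limma 3.58.1 (lmFit, eBayes with trend) in R 4.3.3, absolute and centred on the library median. Reads were tested with edgeR 4.0.16 (TMM, quasi-likelihood), with DESeq2 1.42.0 as an alternative. Each fit held all 12 libraries and 1006 entries (1005 elements and the entry named EMPTY), 6 comparisons were made, and p-values were adjusted by Benjamini-Hochberg over all entries, with a threshold of 0.05. The steps were tested on simulated data. Class values are medians over elements per library, summarised over 3 libraries, with Python 3.11.15.

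The members and lists were chosen with earlier results of these data known. Elements were named if they were the A/T-only changes of the site at position 2, had the longest runs, were among the 3 highest or lowest in read share or in editing at 250 ng, passed a centred test, or had the 5 largest read share changes that passed. Other elements were named after their values were seen: those with lower read share, AATAAATA and those with ATTTA.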

Additional observations from a re-analysis of the deposited data

How the results depend on the processing

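No called result changed direction, and the median centred change for ADARcdMUT against non-induced, 0.023 without a call, was −0.023 without non-induced replicate 1. Each of the 37 members kept its call in absolute editing at 25 ng and 250 ng under every alternative that retained it, and with a minimum of 5000 reads, which kept 24 members, all 24 were called in each of these 5 comparisons. For ADARcdMUT against non-induced, fitting only the 2 groups gave 0 members in absolute and 0 in centred editing, and the arcsine scale 0 in centred editing. Centred calls for 250 ng against non-induced (5) were 11 on the arcsine scale, 2 with the share of edited reads and 9 with only the 2 groups. For 25 ng against non-induced (2) they were 4, 1 with the share of edited reads and 1 with the replicate block. They were 1 for 250 ng against 25 ng and 15 for 250 ng against ADARcdMUT on the arcsine scale, and 1 for 25 ng against ADARcdMUT (3) with only the 2 groups. Read share calls for 250 ng against non-induced (0) were 12 with DESeq2, 9 with the replicate block and 19 with only the 2 groups. For 250 ng against ADARcdMUT (27) they were 17 of the 24 kept members with the minimum of 5000 reads. The share of all entries called in the same fit is not given beside the counts of this section. A change in a count therefore does not tell the members from the background. Replicate numbers did not pair the samples in editing, where same-numbered libraries of different groups correlated between −0.0946 and 0.0737. In read share these correlations ran from −0.753 to 0.765, and every pair exceeded 0.1 only between non-induced and 25 ng (0.222 to 0.515), where the replicate block called 0 members, as without it. Differently numbered libraries of different groups correlated between −0.843 and 0.891 in read share. The A/T-only minus GC-rich difference at 250 ng was 0.076 in log2 odds against elements with 5 or more G or C (11) and 0.091 against all other 8-base elements. In log2 read share it was −0.57 (non-induced), −0.58 (25 ng) and −0.73 (ADARcdMUT) against all others, beside −0.76, −0.76 and −1.11, and −0.58 and −0.55 for the non-induced and 25 ng libraries with the minimum of 5000 reads. The median centred change for 250 ng against ADARcdMUT (0.12) was 0.10 with the share of edited reads and 0.071 with the minimum of 5000 reads. Leaving out 1 library gave 0 to 4 members for ADARcdMUT against non-induced in absolute editing. Centred counts ran from 1 to 8 (250 ng against non-induced), 0 to 4 (25 ng against non-induced), 2 to 10 (250 ng against ADARcdMUT), 1 to 6 (25 ng against ADARcdMUT) and 1 to 2 (ADARcdMUT against non-induced). Read share counts ran from 0 to 18 (250 ng against non-induced), 0 to 16 (250 ng against 25 ng), 0 to 16 (25 ng against ADARcdMUT), 0 to 4 (ADARcdMUT against non-induced) and 21 to 27 (250 ng against ADARcdMUT). Median centred changes ran from 0.084 to 0.15, 0.064 to 0.11, 0.070 to 0.15, 0.039 to 0.12 and −0.023 to 0.025 in the order of the centred counts. The minimum of reads and the fits of 2 groups hold fewer elements or libraries, and the cause of the other differences was not tested. How much of the spread between replicates is counting error was not tested, since reads may be PCR copies.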
